A study of Mus musculus with 7 samples.

Results

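The genes described here are the acyltransferases and lipins that build triglyceride from glycerol-3-phosphate. They are 10 of the 23594 genes in a liver RNA-seq table. They were picked by symbol for their place in the pathway, with earlier results of these data known. The 10 are Gpam, Gpat3, Gpat4, Agpat2, Agpat3, Lpin1, Lpin2, Dgat1, Dgat2 and Mogat1. Of these, 9 averaged 10 or more normalized counts over the 7 mice and were tested. Mogat1 fell under that minimum and is described by its reads. The livers came from 7 mice. The 3 TgL mice carried the mouse Lif gene, which encodes the cytokine leukemia inhibitory factor, behind a CAG promoter and a STOP cassette at the Rosa26 locus, and had no Cre. The 4 TgLC mice carried the same allele together with R26-CreERT2, a tamoxifen-activated recombinase expressed throughout the body, so that Lif was switched on in many tissues and not in hepatocytes alone. All 7 mice, controls included, had received tamoxifen, by the study's methods a single injection of 32 µg/g in females or 64 µg/g in males at 8 weeks of age. None of the sources used here states the sex of each mouse or the day its liver was collected. In the data, Xist, which is transcribed from the inactive X chromosome of females, had 3521 to 9246 normalized counts in all 7 livers, and the Y-linked genes Ddx3y, Eif2s3y, Kdm5d and Uty had 0 to 10.2, with the highest of these in TgL mouse 3. The comparison asks how the expression of triglyceride synthesis genes differs in liver when Lif is overexpressed. The study also reports that TgLC mice given tamoxifen ate less and lost weight and fat. The parts of Lif, active Cre, food intake and wasting cannot be told apart in these livers.

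Triglyceride is assembled in steps at the endoplasmic reticulum and the outer mitochondrial membrane. A glycerol-3-phosphate acyltransferase adds the first fatty acid and makes lysophosphatidic acid, an acylglycerolphosphate acyltransferase adds the next and makes phosphatidic acid, a lipin removes the phosphate to give diacylglycerol, and a diacylglycerol acyltransferase adds the last fatty acid. Phosphatidic acid and diacylglycerol are also the starting points of phospholipid synthesis, and the liver packs much of its triglyceride into very-low-density lipoprotein.

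The members fall into families by their catalytic motifs, and the stretches of coding sequence that hold those motifs are shown so that the paralogs measured side by side can be told apart. In the acyltransferases of the first pair of steps the motif is a histidine and an aspartate separated by 4 residues, and the capitals mark the codons of that histidine and aspartate.
Gpam: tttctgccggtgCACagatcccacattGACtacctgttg
Gpat3: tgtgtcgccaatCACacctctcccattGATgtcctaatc
Gpat4: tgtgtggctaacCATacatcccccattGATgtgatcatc
Agpat2: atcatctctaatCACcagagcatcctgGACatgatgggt
Agpat3: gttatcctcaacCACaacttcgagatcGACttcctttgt
The lipins instead carry the aspartate-any-aspartate-glycine-threonine motif of a phosphatase, with the codons of the aspartates and the threonine in capitals.
Lpin1: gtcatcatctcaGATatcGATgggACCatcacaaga
Lpin2: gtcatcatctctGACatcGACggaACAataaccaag
Dgat2 and Mogat1 belong to a further family with a histidine-proline-histidine-glycine motif, here with the histidine codons in capitals.
Dgat2: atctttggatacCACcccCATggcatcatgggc
Mogat1: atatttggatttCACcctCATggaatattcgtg
All 9 stretches were read 5′ to 3′ from the longest open reading frame of the GENCODE mouse transcripts, and each motif occurred once in its frame. The histidine of the motif is codon 230 of 827 in Gpam (chromosome 19), codon 229 of 438 in Gpat3 (chromosome 5), codon 248 of 456 in Gpat4 (chromosome 8), codon 98 of 278 in Agpat2 (chromosome 2) and codon 96 of 376 in Agpat3 (chromosome 10). Dgat1, which adds the same last fatty acid as Dgat2, belongs to a different enzyme family and has none of these motifs shown.

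Whether reads of one member could have been counted for another was checked on these coding sequences. Over the 45 pairs of members the longest run of identical bases was 19, in Lpin1 and Lpin2, whose aligned coding sequences were 67.8% identical. Identity was 70.3% for Gpat3 and Gpat4, 62.2% for Agpat2 and Agpat3, and 63.1% for Dgat2 and Mogat1. Of the annotated genes in the table that overlap a member, the one with the highest counts was Egfl7, an endothelial gene that shares 64 bases with Agpat2 on the opposite strand and had means of 147 normalized counts in TgL and 183 in TgLC. AC110206.1, which lies antisense to Gpam over 18314 bases, had means of 7.94 in TgL and 0.256 in TgLC, far under the counts of Gpam itself. Overlapping genes without values here included Gm26561, on the same strand as Lpin2 over 67258 bases, and Gm20532, opposite Agpat2 over 11361 bases. Their effect on the counts of Lpin2 and Agpat2 was not tested. No source used here states whether the counting used strand.

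Each library held 9367681 to 11030699 reads in genes in TgL and 11325974 to 12448961 in TgLC. Lif, the switched gene, had 1, 2 and 0 reads in the TgL livers and 10, 12, 10 and 25 in the TgLC livers. Its mean was 0.962 ± 0.997 normalized counts (SD, n = 3) against 14.4 ± 7.2 (SD, n = 4), with no overlap (exact permutation test, two-sided, p = 0.0571, which is the lowest that 3 against 4 mice can reach). Summed markers of hepatocytes were high in all 7 livers, between 803970 and 1249172 normalized counts, and of 7 tested 2 were higher in TgLC (Hnf4a and Tat), 2 were lower (Ttr and Cps1) and 3 did not pass. Albumin, one of those 3, took 9.61% to 10.4% of reads in TgL and 4.63% to 5.59% in TgLC. Mitochondrial genes took 4.30% to 4.51% of reads in TgL and 2.58% to 2.93% in TgLC. Of 11 tested exocrine pancreas markers, 11 were lower in TgLC, with sums of 559 to 1003 in TgL and 2.02 to 5.0 in TgLC, where most of them were at 0. With no TgLC sum above 5.0, these markers reached the minimum of 10 for testing through their TgL values alone. Of 4 tested neutrophil markers, 4 were higher in TgLC, with sums over 10 markers of 10.9 to 62.2 in TgL and 101 to 192 in TgLC. S100a8, Retnlg and Mmp8 averaged 5.25, 1.01 and 3.82 normalized counts in TgL. They reached the minimum for testing only through TgLC, which largely set their direction beforehand. Of the markers under the minimum, Cxcr2 and Elane had higher means in TgLC. Camp, Ngp, Ltf and Ly6g had means of 0.970, 4.07, 2.33 and 0.298 in TgL. In TgLC their means were 1.00, 3.52, 1.76 and 0.503. Of 4 tested markers of monocyte-derived macrophages, 2 were higher, Itgam and Trem2, with sums over 6 markers of 44.7 to 58.1 in TgL and 64.8 to 164 in TgLC. Itgam and Trem2 averaged 5.81 and 5.80 in TgL and also reached the minimum only through TgLC. Under the minimum, the mean of Gpnmb was higher in TgLC (15.8 against 2.19) and that of Ly6c2 was lower (3.77 against 6.91). The part of these markers and read shares in the results on the members was not tested, and in bulk tissue fewer cells of a type and less RNA per cell cannot be told apart.

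The livers also differ in how they were labelled. TgL mice 1 and 2 and TgLC mice 1 and 2 have titles from a single running number series, while TgL mouse 3 and TgLC mice 3 and 4 have other titles. Adipocyte markers followed the division into mice within and outside the series and not the genotype. Their sum was 51.9 and 68.7 normalized counts in TgL mice 1 and 2 and 42.0 and 49.1 in TgLC mice 1 and 2, but 1.02 in TgL mouse 3 and 0 in TgLC mice 3 and 4, in which all 4 markers in the table, Adipoq, Retn, Plin1 and Cfd, were at 0. What the titles stand for is not stated, and the log2 fold changes of the 9 members tested are therefore also given within each set of mice. Outside the series, genotype and form of title go together, so their parts in those fold changes cannot be told apart.

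Of the 9 members tested, 2 were higher in TgLC (Gpat3 and Agpat2), 3 were lower (Gpam, Lpin2 and Dgat2) and 4 did not pass (limma on log2 of the normalized count plus 1, Benjamini-Hochberg adjustment over 13145 genes, adjusted p under 0.05). A share of 31.2% of all genes tested passed the same rule, 16.2% higher and 15.0% lower, against 55.6% of the members. The members were chosen with earlier results of these data known, and the difference between these shares was not tested. Among 11 other isozymes of the pathway that were tested, 2 passed. A fold of at least 2 was also reached by 4 members, Gpam, Gpat3, Lpin2 and Dgat2, where 14.2% of all genes tested reached it. The values of the 2 genotypes did not overlap for 5 of the 9, the same 5 that passed, where 41.1% of all genes tested did not overlap. The median log2 fold change of the members was -0.33, beside 0.00 for all genes tested, and the median of its absolute size was 0.91, beside 0.39. The members did not move together in direction: the decreases were at the first, the lipin and the last step, and the increases in a second enzyme of the first step and in the step that follows it.

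**Figure D1:**
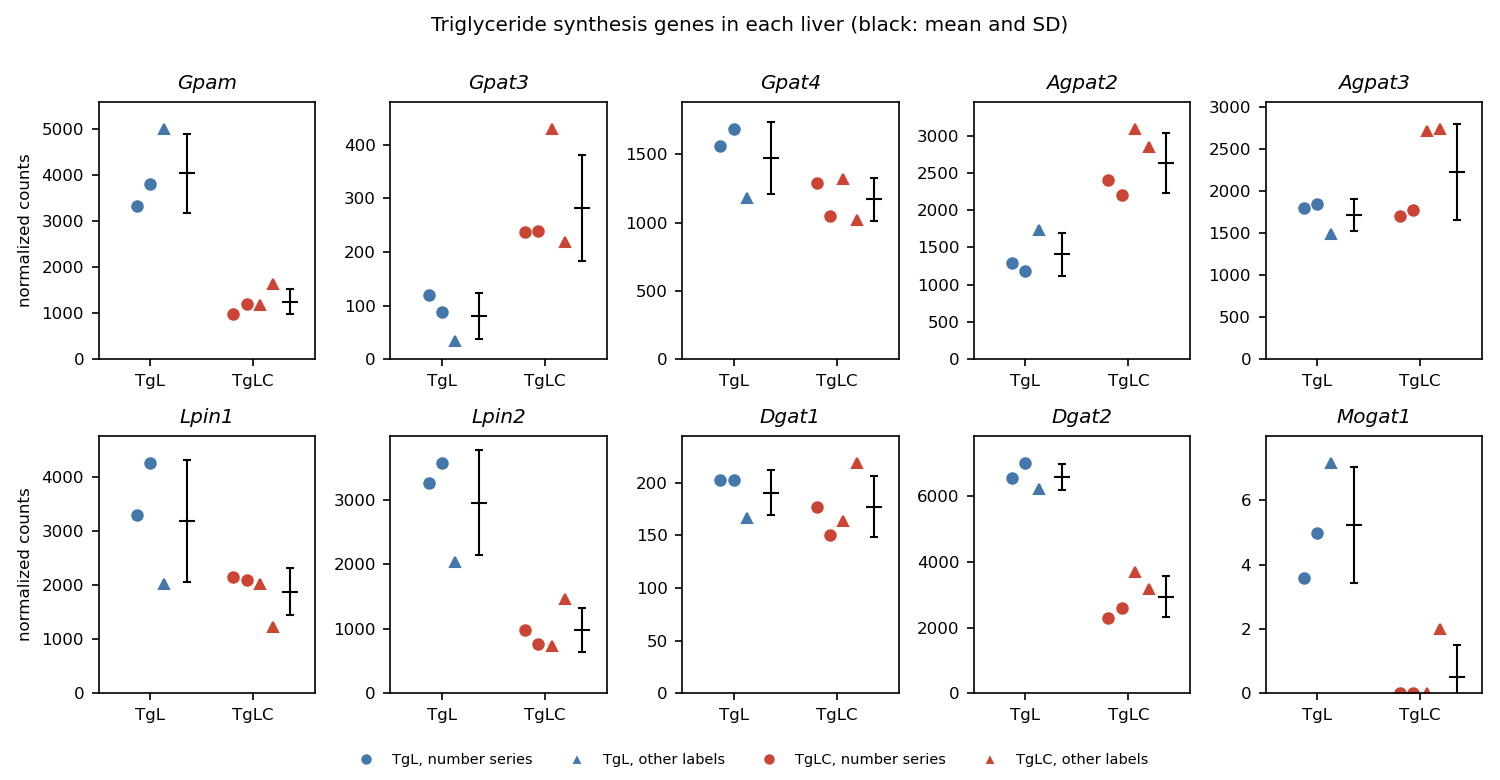
Normalized counts of the 10 members in each liver, 3 TgL (blue) and 4 TgLC (red), with the mean and SD in black; circles are mice with titles from the running number series and triangles the other mice. Gpam, Lpin2 and Dgat2 lie lower in all 4 TgLC livers than in any TgL liver, Gpat3 and Agpat2 lie higher, and Mogat1 is at 0 in 3 TgLC livers.

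The first acylation is carried out by enzymes at different sites in the cell, and 2 of these, Gpam and Gpat3, moved in opposite directions. Gpam encodes the mitochondrial glycerol-3-phosphate acyltransferase, which in liver directs newly made fatty acids toward triglyceride. Its level was 3329, 3798 and 4997 normalized counts in TgL mice 1 to 3 and 988, 1204, 1188 and 1635 in TgLC mice 1 to 4. Every TgLC liver was below every TgL liver, by a wide gap. The mean was 4042 ± 860.2 (SD, n = 3) against 1254 ± 272 (SD, n = 4), 3.22-fold lower in TgLC (log2 fold change -1.69, SE 0.19, limma adjusted p = 2.97e-04). The log2 fold change was -1.70 within the number series and -1.84 outside it. The value outside rests on 1 TgL liver, TgL mouse 3, which had the highest Gpam at 4997.

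Gpat3, an acyltransferase of the endoplasmic reticulum that is best known from adipocytes, showed the opposite pattern. Its level was 119.8, 88.6 and 33.6 normalized counts in the TgL livers and 237, 239.5, 429 and 219 in the TgLC livers. The lowest TgLC liver was well above the highest TgL liver. The mean was 80.7 ± 43.6 (SD, n = 3) against 281 ± 98.9 (SD, n = 4), 3.49-fold higher (log2 fold change 1.91, SE 0.41, limma adjusted p = 0.0074), which was the largest rise among the 9 members tested. It was a log2 fold change of 1.2 within the number series and 3.15 outside it, where the only control is TgL mouse 3, the liver with the lowest Gpat3 and almost no adipocyte marker reads (adjusted p of the difference 0.0862). TgLC mice 3 and 4 had no adipocyte marker reads and had 429 and 219 normalized counts of Gpat3. TgL mice 1 and 2, at 119.8 and 88.6 of Gpat3, had adipocyte marker sums of 51.9 and 68.7. TgL mouse 3, at 33.6, had a sum of 1.02. The part of adipocyte RNA in the Gpat3 difference was not tested. The sum of neutrophil markers was higher in every TgLC liver too, and its part in the Gpat3 difference was not tested.

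Gpat4, the close paralog of Gpat3 at the endoplasmic reticulum, did not pass. Its level was 1559.5, 1685 and 1178 normalized counts in the TgL livers and 1291, 1050.3, 1318 and 1023 in the TgLC livers, and the genotypes overlapped through TgL mouse 3. Its log2 fold change was -0.33 with a 95% interval of -0.68 to 0.03 (limma adjusted p = 0.151). It was -0.48 within the number series (limma adjusted p = 0.0191) and -0.02 outside it (adjusted p of the difference 0.316).

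Set against each other within a liver, the enzymes of the first step changed in make-up. Per kilobase of exon, Gpam held 65.1% to 80.1% of the normalized counts of Gpam, Gpat3 and Gpat4 in TgL and 35.8% to 53.2% in TgLC. Gpat3 held 1.03% to 4.46% in TgL and 13.6% to 24.6% in TgLC, and Gpat4 18.8% to 30.4% and 33.2% to 47.2%. For none of the 3 genes did the shares overlap between the genotypes. The sum of the 3 genes was 767 to 936 normalized counts per kilobase in TgL and 406 to 498 in TgLC, so the rise of Gpat3 was smaller in normalized counts than the decrease of Gpam. The log2 ratio of Gpat3 to Gpat4 was -4.34 ± 0.70 (SD, n = 3) in TgL and -2.10 ± 0.35 (SD, n = 4) in TgLC, a difference of 2.24, and that of Gpam to Gpat4 was 1.45 ± 0.55 and 0.08 ± 0.46, a difference of -1.37. For both ratios the genotypes did not overlap, and the exact permutation test (two-sided) gave p = 0.0571, the lowest it can reach here, or 0.0952 after adjustment over 5 ratios.

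**Figure D2:**
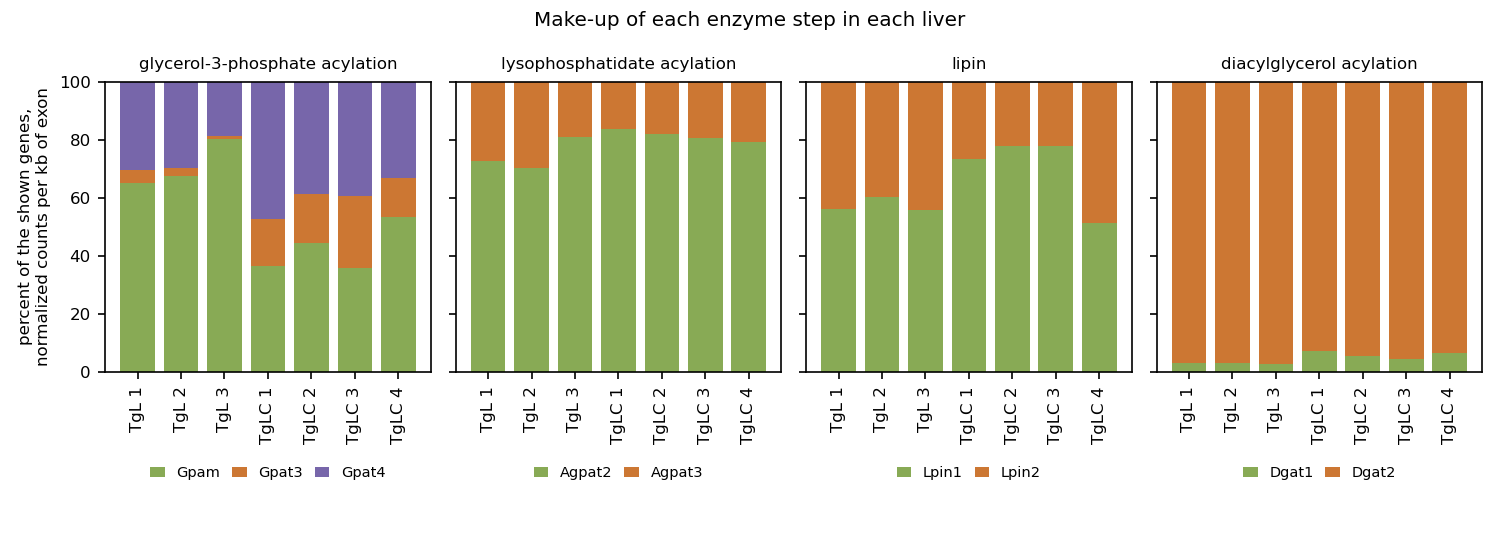
Share of each enzyme in the normalized counts per kilobase of exon of its step, in percent, for each liver. Gpam holds the largest part of the first step in every TgL liver, Gpat4 overtakes it in TgLC mice 1 and 3, and TgLC mouse 4 alone keeps a TgL-like make-up of the lipins.

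In the next step Agpat2 rose and Agpat3 did not pass. Agpat2 encodes the acyltransferase whose loss causes generalized lipodystrophy in people and fatty liver in mice. Its level was 1295, 1189 and 1732 normalized counts in the TgL livers and 2400.1, 2198, 3085 and 2841 in the TgLC livers. All 4 TgLC livers were above all 3 TgL livers, with means of 2631 ± 405 (SD, n = 4) and 1406 ± 288 (SD, n = 3). The difference was 1.87-fold (log2 fold change 0.91, SE 0.17, limma adjusted p = 0.00385), just under the fold of 2. It was 0.89 within the number series and 0.77 outside it (adjusted p of the difference 0.713), although the 3 mice outside it did not reach the threshold on their own (limma adjusted p = 0.0780).

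Agpat3, a related acyltransferase with a preference for polyunsaturated fatty acids, did not pass over the 7 mice. Its level was 1801, 1843 and 1489 normalized counts in the TgL livers and 1700.1, 1771, 2707 and 2731 in the TgLC livers. TgLC mice 1 and 2 sat within the TgL range while TgLC mice 3 and 4 were far above it. The log2 fold change was 0.35 with a 95% interval of -0.10 to 0.80 (limma adjusted p = 0.211). It was -0.07 within the number series and 0.87 outside it, and the difference of 0.94 passed (limma interaction, adjusted p = 0.0369, with 244 of 13145 genes, or 1.86%, passing that test). The estimate outside the series rests on 1 TgL mouse, which does not share the form of title of TgLC mice 3 and 4. A difference that goes with that form and one between genotypes cannot be told apart. Agpat2 and Agpat3 together made 795 to 1004 normalized counts per kilobase in TgL and 1259 to 1796 in TgLC. The log2 ratio of Agpat2 to Agpat3 overlapped between the genotypes, at -0.30 ± 0.45 (SD, n = 3) and 0.26 ± 0.19 (SD, n = 4) (two-sided exact permutation test, p = 0.171, adjusted 0.214).

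Of the lipins, phosphatases that also act in the nucleus as regulators of transcription, Lpin2 fell in TgLC and Lpin1 did not pass. Lpin2 had 3264, 3563 and 2036 normalized counts in the TgL livers and 989, 763, 729.5 and 1469 in the TgLC livers. No liver crossed between the genotypes, and the closest pair were TgL mouse 3 and TgLC mouse 4. The mean was 2954 ± 809 (SD, n = 3) against 987 ± 341 (SD, n = 4), 2.99-fold lower (log2 fold change -1.60, SE 0.27, limma adjusted p = 0.00249). Within the number series the log2 fold change was -1.97, and outside it -0.98, where it did not reach the threshold (limma adjusted p = 0.227; adjusted p of the difference 0.263).

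Lpin1, the lipin that is induced in liver by fasting and glucocorticoids, had 3286, 4243 and 2011 normalized counts in the TgL livers and 2153, 2099, 2026 and 1223 in the TgLC livers. TgL mouse 3 was below the first 3 TgLC livers, so the genotypes overlapped. The log2 fold change was -0.73 with a 95% interval of -1.36 to -0.11 before adjustment (limma adjusted p = 0.0738). The call depended on the method and on TgL mouse 3: DESeq2 on the recovered reads passed (log2 fold change -0.76, adjusted p = 0.0266), as did limma without TgL mouse 3 (-1.03, adjusted p = 0.0211) and within the number series (-0.81, adjusted p = 0.0032). It did not pass outside the series (-0.35, limma adjusted p = 0.529; adjusted p of the difference 0.493) or without TgL mouse 2 (-0.49, limma adjusted p = 0.26).

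The 2 lipins had similar normalized counts in each of the 3 TgL livers, with a log2 ratio of Lpin2 to Lpin1 of -0.01, -0.25 and 0.02. In TgLC mice 1 to 3 the ratio was -1.12, -1.46 and -1.47, and in TgLC mouse 4 it was 0.26. With TgLC mouse 4 above every TgL liver the genotypes overlapped (difference -0.87, two-sided exact permutation test, p = 0.229, adjusted 0.229). Without that mouse the difference was -1.27. The low Lpin1 and the high Lpin2 of TgLC mouse 4 were thus each the extreme of its group. Their summed level was 374 to 730.3 normalized counts per kilobase in TgL and 247 to 304 in TgLC, with no overlap.

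**Figure D3:**
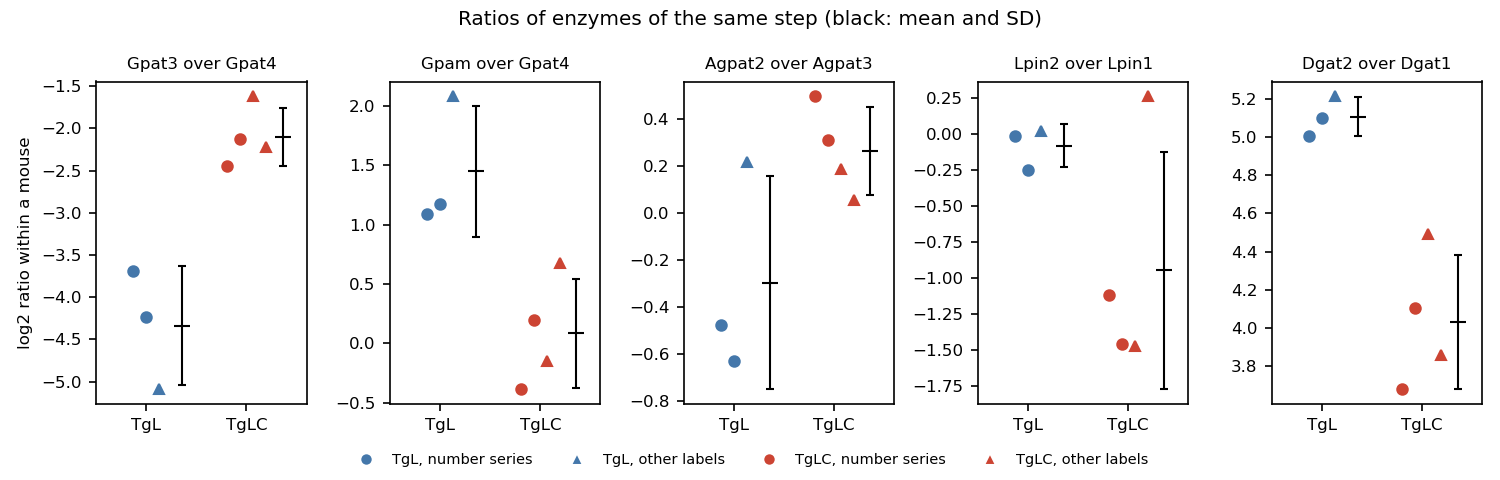
The log2 ratio of 2 enzymes of the same step within each liver (3 TgL, blue; 4 TgLC, red; mean and SD in black; circles, number series; triangles, other titles). The ratios of Gpat3 to Gpat4, Gpam to Gpat4 and Dgat2 to Dgat1 do not overlap between the genotypes, whereas TgL mouse 3 overlaps in Agpat2 to Agpat3 and TgLC mouse 4, at 0.26, in Lpin2 to Lpin1.

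Of the transcripts for the last acylation, Dgat2 held 92.7% to 97.4% of the normalized counts per kilobase of Dgat1 and Dgat2 in the 7 livers. It encodes the diacylglycerol acyltransferase tied to newly made fatty acids and lipoprotein secretion. It had 6559, 6995 and 6207 normalized counts in the TgL livers and 2280.1, 2604, 3704 and 3178 in the TgLC livers. The TgL livers lay close together and all TgLC livers lay far below them. The mean was 6587 ± 395 (SD, n = 3) against 2942 ± 630 (SD, n = 4), 2.24-fold lower (log2 fold change -1.19, SE 0.17, limma adjusted p = 0.00102). Within the number series the log2 fold change was -1.47. Outside it the value was -0.86, short of the threshold (limma adjusted p = 0.0857; adjusted p of the difference 0.137).

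Dgat1, the unrelated enzyme that mainly re-esterifies fatty acids taken up from outside, had 203, 203 and 166 normalized counts in the TgL livers and 177, 150.5, 164 and 218 in the TgLC livers. The genotypes overlapped throughout. Its log2 fold change was -0.11 with a 95% interval of -0.47 to 0.25 (limma adjusted p = 0.629), an interval that lies wholly above the value for Dgat2. It was -0.31 within the number series and 0.19 outside it, and passed in neither (limma adjusted p = 0.110 and 0.669; adjusted p of the difference 0.322). Dgat1 held 2.63% to 3.03% of the summed Dgat1 and Dgat2 counts per kilobase in TgL and 4.27% to 7.26% in TgLC. That sum was 2068 to 2335 in TgL and 797.5 to 1255 in TgLC. The log2 ratio of Dgat2 to Dgat1 was 5.11 ± 0.10 (SD, n = 3) and 4.03 ± 0.35 (SD, n = 4), with no overlap (difference -1.07, two-sided exact permutation test, p = 0.0571, adjusted 0.0952).

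Mogat1, a monoacylglycerol acyltransferase that gives diacylglycerol by a route around the first steps, was near the limit of detection. It had 3.58, 4.98 and 7.14 normalized counts in the TgL livers, 0 in TgLC mice 1 to 3 and 2.0 in TgLC mouse 4. These are 16 reads in all TgL livers and 2 in all TgLC livers, a ratio of TgLC to TgL of 0.0979 after scaling for depth, with an exact 95% interval of 0.0109 to 0.416 that covers counting error only. With the minimum lifted, limma gave a log2 fold change of -2.20 (adjusted p = 0.0154), whereas DESeq2 did not pass (-3.37, adjusted p = 0.0756).

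**Figure D4:**
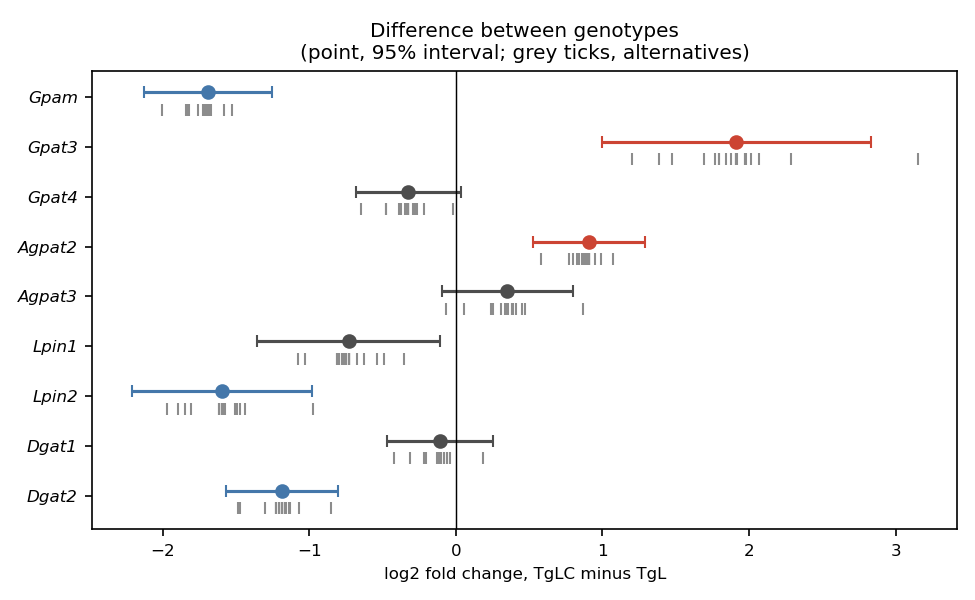
The log2 fold change (TgLC minus TgL) of the 9 members tested, in pathway order, with its 95% interval; blue passed as lower, red as higher, grey did not pass, and grey ticks are the values under 20 alternative settings or subsets of mice. Only Agpat3, at -0.07, and Dgat1, at 0.19, have a tick on the other side of 0.

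These differences changed the order of the levels per kilobase of exon. The length used was the union of all exons annotated for a gene in GENCODE, not that of the expressed transcript. It was 12233 bases for Lpin2 and 3502 for Gpat3, and ranks between genes depend on this choice. In TgL livers Dgat2 stood first at 2137 ± 128 normalized counts per kilobase (SD, n = 3), followed by Agpat2 at 659.9 ± 135 and Gpam at 606 ± 129, which overlapped each other. Lpin1 at 329 ± 116, Lpin2 at 242 ± 66.1, Gpat4 at 221 ± 39.6 and Agpat3 at 219.6 ± 24.9 overlapped as well. Dgat1 at 62.4 ± 6.96, Gpat3 at 23.0 ± 12.5 and Mogat1 at 3.36 ± 1.15 each stood apart at the bottom. In TgLC livers Agpat2 came first at 1235 ± 190.0 (SD, n = 4), overlapping Dgat2 at 954 ± 204. Agpat3 followed at 286 ± 73.0, then Lpin1, Gpam and Gpat4 between 175 and 194, all overlapping their neighbours. Lpin2 at 80.7 ± 27.9 and Gpat3 at 80.3 ± 28.3 overlapped Dgat1 at 58.1 ± 9.61. Gpat3, which in TgL was below Dgat1 in all 3 livers, was thus level with Lpin2 per kilobase in TgLC. In normalized counts the TgLC means were 281 for Gpat3 and 987 for Lpin2.

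Promoters are shown for 4 of the 5 members that passed, so that Gpat3 and Agpat2, which rose, can be compared in sequence with Gpam and Lpin2, which fell; that of Dgat2 was not analysed here. The RefSeq promoters used, on build GRCm38.p6, matched 7 of the 10 members with 10 start sites, of which 3 belong to Lpin2 and only the first of those is printed. Each line gives the 100 bases before a start site, 5′ to 3′ on the gene's strand, with motifs found on either strand in capitals. Those in capitals here are the GC box, spelled GGGCGG, the box spelled CCAAT, and the E-box, for which the letters CACGTG were searched.
Gpam, downstream start, chr19:55099478-55099577, minus strand: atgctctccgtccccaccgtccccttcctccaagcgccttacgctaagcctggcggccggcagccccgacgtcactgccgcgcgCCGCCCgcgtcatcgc
Gpam, upstream start, chr19:55127239-55127338, minus strand: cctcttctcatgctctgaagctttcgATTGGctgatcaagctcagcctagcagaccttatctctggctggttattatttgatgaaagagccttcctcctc
Gpat3, chr5:100846129-100846228, plus strand: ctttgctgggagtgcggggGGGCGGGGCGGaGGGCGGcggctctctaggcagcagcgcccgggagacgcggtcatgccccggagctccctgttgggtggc
Agpat2, chr2:26604418-26604517, minus strand: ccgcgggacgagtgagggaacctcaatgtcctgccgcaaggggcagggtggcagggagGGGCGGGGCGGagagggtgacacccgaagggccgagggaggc
Lpin2, first start, chr17:71183432-71183531, plus strand: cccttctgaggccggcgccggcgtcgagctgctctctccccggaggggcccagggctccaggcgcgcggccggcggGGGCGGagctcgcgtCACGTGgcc
Gpat3 has 3 GC boxes, beginning 81, 76 and 69 bases before the start, and Agpat2 has 2, at 42 and 37; the first pair in Gpat3 and the pair in Agpat2 overlap by a base. The starts of Gpam lie 27.8 kb apart, the downstream one with a GC box and the upstream one with a CCAAT box. In the full 250 bases searched, a GC box was found in 5 of the 10 member promoters and in 32.7% of 32851 mouse promoters, a CCAAT box in 2 and 33.8%, and an E-box in 1, that of Lpin2, and 6.02%. A STAT motif (TTCNNNGAA) was in none of the 10 and in 7.02% of all, and neither a sterol regulatory element (TCACNCCAC; 1.05% of all) nor a direct repeat with one spacer base (0.0335% of all) was in any of the 10. The matches describe these windows only, and GC boxes were present both in a promoter of a gene that rose and in one of a gene that fell.

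Genes whose levels most resembled those of the 4 members with the largest changes over the 7 livers were read out as a description, from the 7994 genes that averaged 100 or more normalized counts. For Gpam they were Rala, Sc5d and Lcp1 (Pearson r = 0.997, 0.995 and 0.995), and for Gpat3 they were Mrpl20, Dcun1d3 and Wdr55 (r = 0.990, 0.988 and 0.988). For Lpin2 they were Fam13a, Apoa5 and Ces2a (r = 0.978, 0.974 and 0.972), and for Dgat2 they were Fabp1, Adh1 and Sugct (r = 0.997, 0.997 and 0.996). Fabp1 encodes the liver fatty acid binding protein, Apoa5 an apolipoprotein that governs plasma triglyceride, and Sc5d an enzyme of cholesterol synthesis. All 7 points share the genotype difference and the scaling, so that any gene with a similar difference scores high.

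The neighbouring genes of glycerolipid metabolism passed at a share close to that of all genes. Of 63 such genes in 6 lists, 61 were in the table and 49 were tested, of which 5 were higher, 10 were lower and 34 did not pass. That is 30.6% called, beside 31.2% of all genes tested, with a median log2 fold change of 0.02. Among the other isozymes of the pathway 2 of 11 rose and none fell. Lpgat1, which encodes a lysophospholipid acyltransferase, averaged 2273 ± 169 normalized counts in TgL (SD, n = 3) and 8868 ± 1282 in TgLC (SD, n = 4), a log2 fold change of 1.96 (SE 0.14, limma adjusted p = 2.13e-05). Plpp2, a lipid phosphate phosphatase at the cell surface, rose by 0.98 (SE 0.16, limma adjusted p = 0.00182). The 3 genes of glycerol-3-phosphate supply that fell, of 4 tested, were Gpd1, Gpd1l and Gk. Gpd1l, a glycerol-3-phosphate dehydrogenase, had a log2 fold change of -1.18 (SE 0.14, limma adjusted p = 4.31e-04).

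Of 18 tested genes that carry phosphatidic acid and diacylglycerol into phospholipids, 3 rose and 5 fell. Etnk1, an ethanolamine kinase, averaged 797 in TgL and 1565 in TgLC and rose by 0.97 on the log2 scale (SE 0.10, limma adjusted p = 1.69e-04). Etnk2, an ethanolamine kinase with higher counts, averaged 3416 and 4549 and did not pass (log2 fold change 0.41, limma adjusted p = 0.0876). Pcyt2, the enzyme of the step that follows these kinases, had a log2 fold change of -0.92 (SE 0.13, limma adjusted p = 0.00103). Pgs1, which makes phosphatidylglycerolphosphate in mitochondria, rose by 1.13 (SE 0.15, limma adjusted p = 6.02e-04), whereas Tamm41, which makes CDP-diacylglycerol in mitochondria, did not pass (limma adjusted p = 0.991). Cds2, which makes CDP-diacylglycerol in the endoplasmic reticulum, had a log2 fold change of -0.65 (SE 0.11, limma adjusted p = 0.00194). Lpcat3, which puts polyunsaturated fatty acids into phosphatidylcholine, was the 1 of 4 remodeling acyltransferases that passed, at -1.0 (SE 0.18, limma adjusted p = 0.00359). Of 6 diacylglycerol kinases, 1 fell in limma, Dgka, while edgeR called 2 and DESeq2 called 0, with 2 at an unadjusted limma p under 0.05. None of 6 genes for the lipin phosphatase and for droplet formation passed in limma, edgeR or DESeq2, and 1 had an unadjusted limma p under 0.05.

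**Figure D5:**
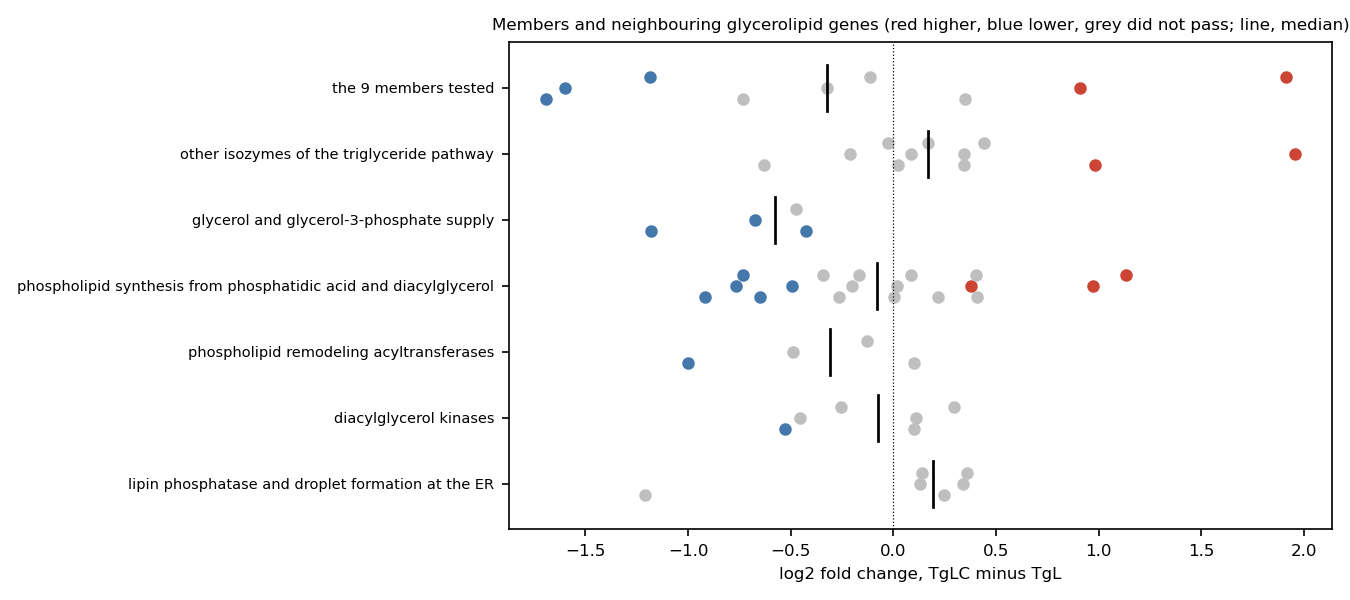
The log2 fold change (TgLC minus TgL) of the 9 members tested and of 49 neighbouring glycerolipid genes in 6 lists; each point is a gene, red passed as higher, blue as lower, grey did not pass, and the black line is the median. The members reach from -1.69 to 1.91 and the 3 genes that fell in the supply of glycerol-3-phosphate lie between -1.18 and -0.42.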

How the data were processed

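Poly-A RNA of 7 livers (3 TgL, 4 TgLC) was sequenced. Per the submitters' notes reads were handled with HISAT2 2.0.5, DESeq2 1.20.0, featureCounts 1.5.0-p3 and fastp; no source used here states the genome build, annotation or strand setting. The deposited values are a signal: gene counts that the authors divided by 1 DESeq2 size factor per mouse, here called normalized counts. All values were whole multiples of 1 read within 1e-06, so reads were recovered for count tests.

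Genes averaging 10 or more normalized counts were tested with limma 3.58.1 (trend) on log2(normalized count + 1) in R 4.3.3, with Benjamini-Hochberg adjustment over all 13145 genes. Log2 fold changes are on that scale and understate low genes; values given as folds are ratios of group means. Ratios were tested by two-sided exact permutation on the same scale. Alternatives used edgeR 4.0.16, DESeq2 1.42.0, other scalings, pseudocounts and filters, and subsets of mice. Analyses by label series as a covariate or interaction were added after seeing the data. Scripts were tested on simulated data.

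All 10 members are named. From the other glycerolipid lists the text names the 4 called genes of lowest adjusted p in each direction. Gpd1, Gk, Dgka, Tamm41, Etnk2 and single marker genes were named after their values were seen. Members and lists were chosen with earlier results of these data known. Labels do not say that the samples of a group are separate experiments, and p-values measure only the spread between these mice. Mice are numbered in accession order.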

Additional observations from a re-analysis of the deposited data

Results flagged for a closer look

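Among 10 groups of 4 TgLC values checked for a liver far from the others, 3 held one; chance alone gives about 1 in 20, a rate that does not apply to Mogat1, where any single liver above 0 would stand out. Gpat3 was highest in TgLC mouse 3, at 429 normalized counts beside 219 to 239.5 in the other TgLC livers. Lpin1 was lowest in TgLC mouse 4, at 1223 beside 2026 to 2153. Mogat1 was 2.0 in TgLC mouse 4, which is 2 reads, and 0 in the others.

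The difference between genotypes in Agpat3 was larger by 0.94 on the log2 scale in the mice with titles outside the running number series than in those within it (limma interaction, adjusted p = 0.0369). The mice outside the series include only 1 TgL liver. Agpat3 was at 2707 and 2731 normalized counts in TgLC mice 3 and 4 and at 1489 to 1843 in all other livers. No TgL mouse has their form of title, so a difference that goes with the title and one between genotypes cannot be told apart here.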

How the results depend on the processing

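Gpam and Gpat3 kept direction and call in all 20 alternatives, with log2 fold changes of -2.01 to -1.53 and 1.2 to 3.15. Agpat2, Lpin2 and Dgat2 kept direction in all 20 and lost the call only in the 3 mice outside the number series. There the members called fell from 5 to 2, the other glycerolipid genes from 15 to 4 and all genes from 4104 to 850, with 1 TgL mouse, assumed to vary like the others. In that subset Dgat1 turned to 0.19, and within the number series Agpat3 turned to -0.0705. Scaling by library totals moved the median of all genes by -0.30 and called 7 members, with Gpat4 at -0.65 before that shift is taken off, and 23 other glycerolipid genes (4 higher, 19 lower). Leaving out each mouse in turn gave 5 to 6 members, 11 to 17 other glycerolipid genes and 2586 to 4119 genes overall; the lowest overall counts were 2586 without TgL mouse 1 and 2694 without TgL mouse 2. It gave a Lif fold of 9.96 to 32.1. Lpin1 passed in 5 of 20 alternatives. No paired analysis was possible because the labels carry no replicate numbers shared by the genotypes. Depth limits Mogat1 and Lif, which have few reads.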
